A study of Homo sapiens with 16 samples.

Results

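Mantle cell lymphoma commonly loses genes that hold back the cell cycle or respond to DNA damage, and 9 of these genes and their close partners are described here: CDKN2A, CDKN2B, CDKN2C, MTAP, ATM, MDM2, CDKN1A, CDKN1B and RB1. A gene was taken to be measured where the platform annotation gave a probe set that symbol and no other. Of the 9 genes, 8 were measured, by 31 probe sets, out of 19775 genes on the array, and all 8 passed the filter on low values that kept 12314 genes. CDKN2C had no probe set of its own by that rule and was not analysed here. Where a gene had several probe sets, the one of highest mean intensity stood for it, and the others are given beside it.

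The RNA came from 8 human B-cell lines that the series treats as models of this lymphoma: GRANTA-519, HBL-2, JVM-2, JVM-13, Maver-1, REC-1, SP49 and Z-138. Cells of each line received AFN700 at 5 uM, an inhibitor of the NF-kB kinase IKKbeta, or the solvent DMSO at 0.025% for 20 hours, and 1 Affymetrix array was run per line and treatment, 16 in all. By the labels, SP49 and REC-1 were sensitive to STN or ibrutinib and the other 6 lines insensitive. The AFN700 array of JVM-13 carries AFN700 in its title and AFN701 in its treatment label, and was used as AFN700. The medium was DMEM for GRANTA-519 and RPMI for the rest. Each line is a single established culture, and nothing in the labels names a second culture of any line and treatment. Lines were therefore the replicates of the treatment, while the p-values for differences between lines rest on the spread between the 2 arrays of a line.

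The INK4 proteins encoded by CDKN2A, CDKN2B and CDKN2C inhibit the cyclin D kinases CDK4 and CDK6. The CIP/KIP proteins p21 (CDKN1A) and p27 (CDKN1B) bind cyclin-CDK complexes more widely, and the retinoblastoma protein RB1 is the main substrate of these kinases, holding E2F transcription factors in check until it is phosphorylated. CDKN2A also encodes ARF, which restrains the ubiquitin ligase MDM2. ATM is a kinase that signals DNA double-strand breaks. MTAP, an enzyme of methionine salvage, lies beside CDKN2A and CDKN2B on chromosome 9p21 and is often deleted together with them. The INK4, CIP/KIP and RB1 proteins meet in mantle cell lymphoma at cyclin D1, which the t(11;14) translocation drives.

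Intensities are the authors' MAS5 values on a linear scale, and each deposited array has a trimmed mean of 150. A gene was called near background in a line where its probe set lay under the 60th percentile of the array, an intensity of 21.4 to 31.5, on both arrays of that line. As a yardstick, 54 genes restricted to other tissues lay under that percentile in 91.7% of their values, against 48.8% over all genes. The arrays measure RNA and not DNA, so a near-background value is a low RNA level and no measurement of a deletion. Each array is bulk RNA, in which fewer expressing cells and less RNA per cell cannot be told apart.

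A pair of lines stood apart. On the DMSO array of JVM-13 the median over the genes tested was 7.25 (log2), whereas it ranged from 7.81 to 8.02 elsewhere (15 arrays). The arrays of JVM-13 correlated at r = 0.924. In HBL-2 the arrays correlated at 0.964, and the ratio of 3' to 5' actin probe sets, which rises with RNA degradation, was 1.9 with DMSO and 16.7 with AFN700. In the other 6 lines the 2 arrays correlated at 0.971 to 0.99. The ratio was 10.3 and 18.8 in Maver-1 and 1.9 to 6.39 on the 13 arrays outside Maver-1 and the AFN700 array of HBL-2. Of 8 B-cell markers, 7 were measured and none was near background in any line. Of the markers of mantle cell lymphoma, CCND1 (cyclin D1) was at 4.8 and 2.3 in JVM-13 and at 78.7 and 79.1 in JVM-2, against 172.3 to 2328.5 in the other 6 lines. SOX11, a transcription factor typical of the disease, did not exceed 1.4 in JVM-2 and JVM-13, and CD5 was above background on both arrays only in Maver-1. Both lines thus lacked SOX11 RNA, and JVM-13 also lacked CCND1 RNA, at the level these arrays resolve.

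The levels of all 8 measured genes differed between the lines by limma's moderated F-test with Benjamini-Hochberg adjustment over the 12314 genes, as did 72.4% of all genes tested. Nothing is read from the count, since CDKN2A and CDKN2B were tested only through the lines where they are high. What set the genes apart from each other was the form of the difference. CDKN2A, CDKN2B, MTAP and CDKN1A were near background in some lines and above it on both arrays in others, as were 18.9% of all genes. CDKN1B, RB1, ATM and MDM2 were above it on both arrays in all 8 lines, as were 38.6% of all genes.

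By line, 3 of the 8 genes were near background in REC-1 (48.5% of all genes), 3 in GRANTA-519 (46.4%) and 3 in Maver-1 (47.5%). The number was 2 in SP49 (46.3%) and 2 in Z-138 (48.6%). It was 1 each in HBL-2 (46.7%), JVM-2 (46.6%) and JVM-13 (46.5%). In each line the share of the 8 genes lay under the share of all genes. All 8 had passed the filter on low values, which not all of the 19775 genes did, so nothing is read from this.

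**Figure D1:**
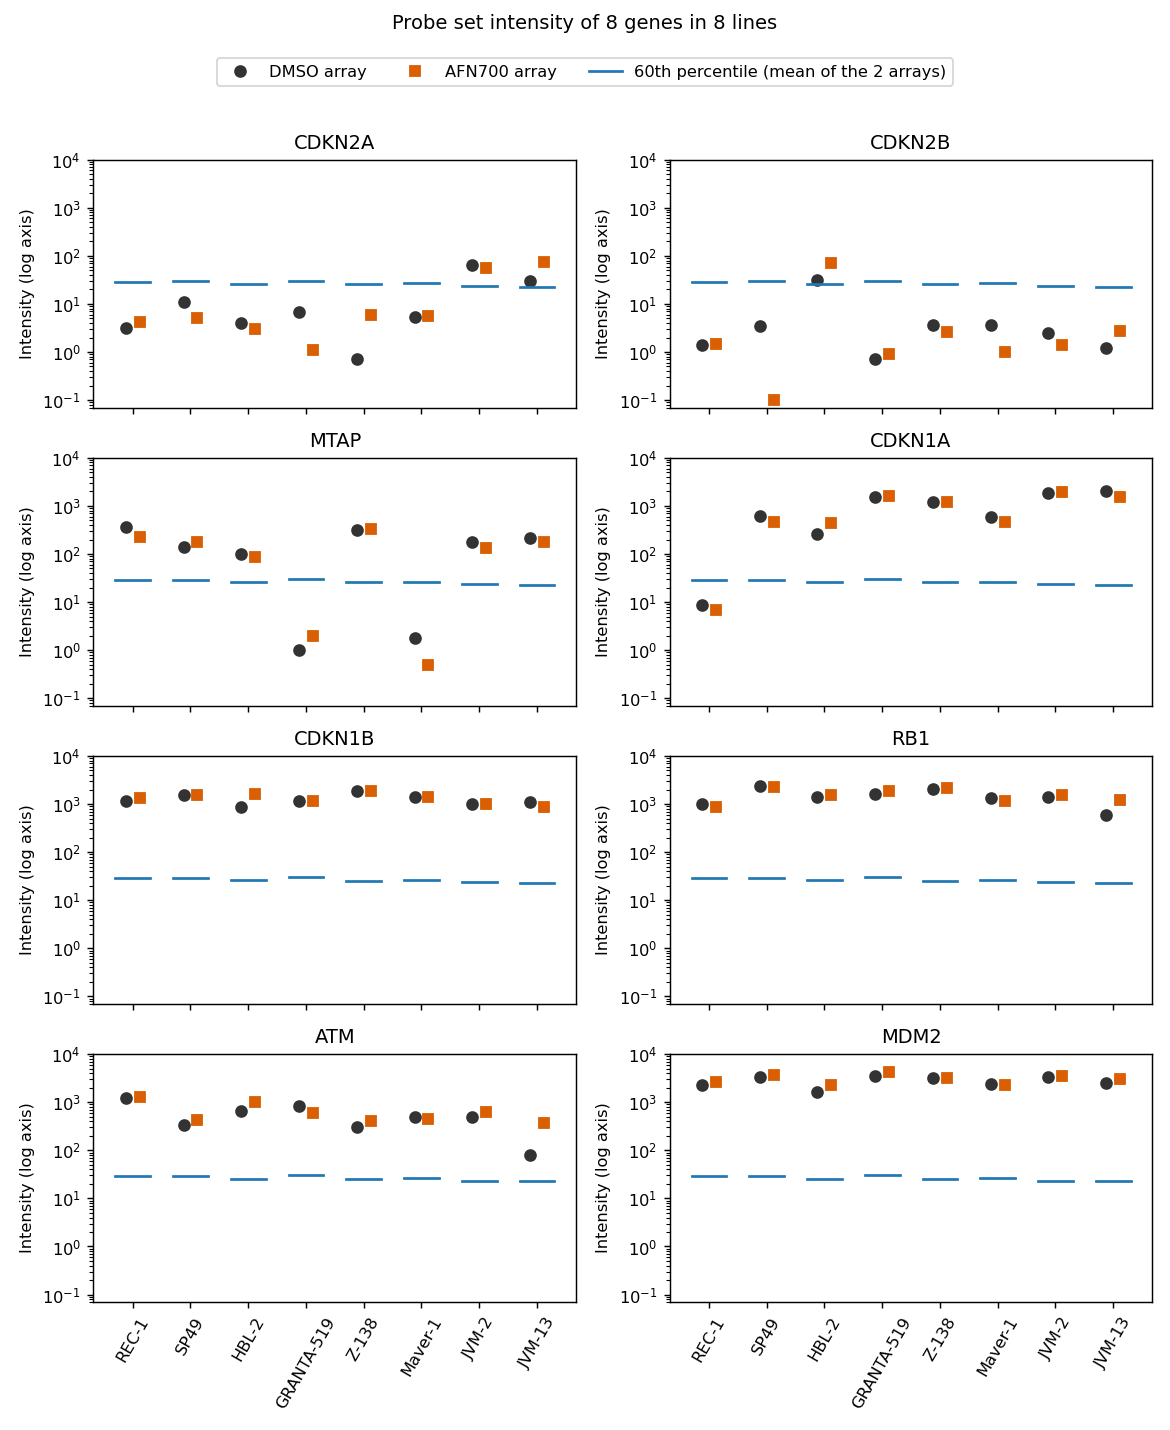
Intensity (log axis) of the probe set that stands for each of 8 genes, on the DMSO array (circle) and the AFN700 array (square) of each line, with the 60th percentile of that line's arrays as a blue bar (mean of the 2 arrays). MTAP lies near background in GRANTA-519 and Maver-1, CDKN1A in REC-1, CDKN2A in 6 lines and CDKN2B in 7, while the other 4 genes lie above the bar in every line.

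CDKN2A RNA, coding for p16INK4a and ARF, was above background in JVM-2 and JVM-13 and near background in the other 6 lines. Its probe set 209644_x_at read 63.3 with DMSO and 55.3 with AFN700 in JVM-2, and 30.2 and 73.7 in JVM-13. In the other 6 lines it read 0.7 to 11.2 on all 12 arrays, which did not overlap with JVM-2 or JVM-13. The probe set 207039_at gave the same 2 lines, at 36.1 and 45.0 in JVM-2 and 29.1 and 50.4 in JVM-13. The third, 211156_at, stayed at 0.4 to 4.4 on all 16 arrays. The gene passed the filter only through the 4 arrays of JVM-2 and JVM-13, so its F-test between lines restates that selection and is not given as support. Of all genes, 1.47% were above background in exactly 2 lines and near it in the other 6. The DMSO array of JVM-13, which stands apart, was the lowest of the 4 arrays with signal. The number of lines near background was 5 with the 40th percentile as the limit, and 7 with the 70th percentile and with the mean over probe sets, when JVM-2 was near background too.

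The INK4a start of CDKN2A is shown because its RNA was near background in most lines. The 250 bases before it, taken from RefSeq on GRCh38.p14 at chr9:21974858-21975107 on the minus strand, are printed with each GGGCGG (or its complement CCGCCC), the core of a GC box, in capitals.
CDKN2A, INK4a start: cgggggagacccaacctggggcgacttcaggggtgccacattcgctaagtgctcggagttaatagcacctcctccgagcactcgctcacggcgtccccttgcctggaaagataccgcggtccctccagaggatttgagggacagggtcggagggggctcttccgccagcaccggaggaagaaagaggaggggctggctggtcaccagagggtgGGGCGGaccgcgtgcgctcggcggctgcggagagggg
The window holds 1 such match and 20 CG dinucleotides, against a median of 11 over 35116 promoters, of which 42.6% hold the motif on either strand. The ARF start, at chr9:21995325-21995574 on the minus strand, holds none and 24 CG dinucleotides. These matches are letters in a reference window, and DNA methylation was not measured.

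CDKN2B RNA, coding for p15INK4b, was above background in HBL-2 and in no other line. Its probe set 236313_at read 32.2 with DMSO and 70.2 with AFN700 in HBL-2, and 0.1 to 3.7 on the 14 arrays of the other 7 lines. Its other probe set, 207530_s_at, stayed at 0.5 to 8.9 on every array, HBL-2 included, so the HBL-2 signal rests on 1 probe set. The gene passed the filter only through the 2 HBL-2 arrays, so its F-test between lines restates that selection and is not given as support. With the mean over probe sets it was near background in all 8 lines. Above background in exactly 1 line and near it in the other 7 were 2.54% of all genes. CDKN2A and CDKN2B, which are neighbours, had signal in different lines: no line had both.

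MTAP RNA was near background in GRANTA-519 and Maver-1 and well above it in the other 6 lines. Its probe set 231984_at read 1.0 and 2.0 in GRANTA-519 (DMSO and AFN700) and 1.8 and 0.5 in Maver-1. In Z-138 it read 315.7 and 331.9, in REC-1 361.1 and 226.9, in JVM-13 213.4 and 179.9, in JVM-2 180.2 and 135.3, in SP49 139.0 and 178.0, and in HBL-2 98.9 and 86.8. The lines thus fell into 2 sets that did not overlap, with HBL-2 the lowest of the 6 lines with signal. The second probe set with strong signal, 204956_at, split the lines the same way, at 2.2 and 2.5 in GRANTA-519 and 1.6 and 2.2 in Maver-1 and 49.7 to 382.8 in the others. All 6 MTAP probe sets were under the percentile in both lines. Of these, 211364_at and 217134_at were under it on all 16 arrays and so do not tell the lines apart. The F-test gave 120.5 (limma, adjusted p = 8.52e-09), rank 187 of the 12314 genes. Near background in exactly 2 lines and above it in the other 6 were 1.17% of all genes. The same 2 lines came out under each of 6 other definitions of near background. GRANTA-519 and Maver-1 were also the 2 lines in which CDKN2A, CDKN2B and MTAP were all near background.

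The other genes of the region show how far the low RNA reaches. Of 21 protein-coding genes whose start lies within 1 Mb of the start of CDKN2A, 19 were measured. Of these, 15 were near background in all 8 lines, 14 of them interferon genes, and so carry no information on a loss. KLHL9, an adaptor of a ubiquitin ligase, lies within the interferon cluster on the MTAP side of CDKN2A. It was near background only in GRANTA-519, at 3.0 with DMSO and 0.5 with AFN700, against 121.7 to 579.4 in the other 7 lines, and its second probe set 213117_at read 0.3 on both GRANTA-519 arrays. In Maver-1, KLHL9 read 267.9 and 287.0. Among these genes, low RNA thus reached from CDKN2B to KLHL9 in GRANTA-519, and from CDKN2B to MTAP in Maver-1. CDKN2A and CDKN2B were near background in most other lines too. DMRTA1, beyond CDKN2B, was among the 15 near background in all 8 lines, so no edge can be read on that side. HACD4, an enzyme of very long chain fatty acid synthesis beyond that cluster, read 52.0 and 49.4 in GRANTA-519 and 207.8 and 162.2 in Maver-1. It was near background in REC-1 (0.6 and 4.4) and Z-138 (7.9 and 5.3), where MTAP and KLHL9 had signal.

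**Figure D2:**
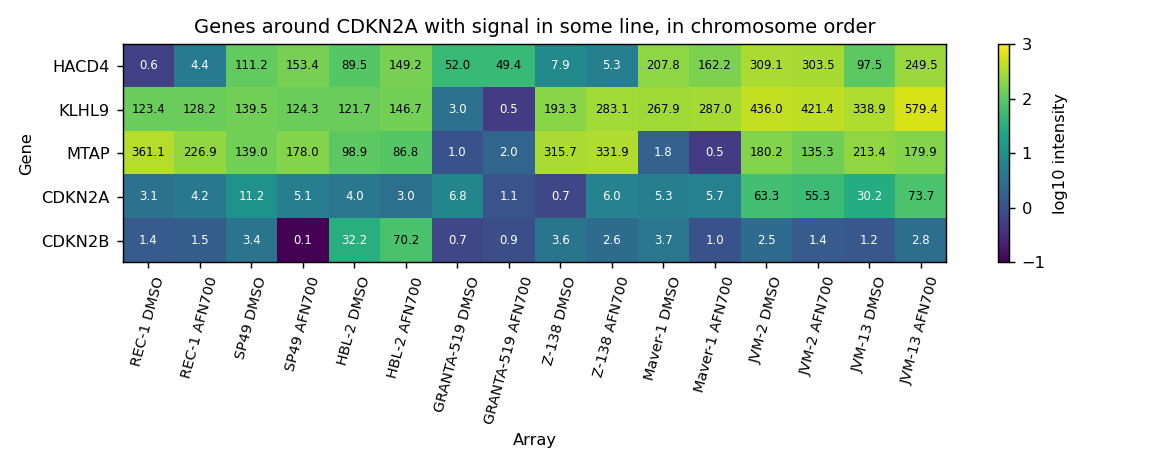
Intensity of the 5 genes around CDKN2A that had signal in some line, in the order in which they lie on the chromosome (rows) on the 16 arrays (columns), with the value printed and log10 intensity as colour. GRANTA-519 is low for KLHL9, MTAP, CDKN2A and CDKN2B, and Maver-1 for MTAP, CDKN2A and CDKN2B but not KLHL9, which reads 267.9 and 287.0 there.

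MTAP works with the enzymes that make polyamines and recycle methionine. Of 14 such genes, all were measured and tested, and 0 rose or fell with AFN700 over the 8 lines by limma (adjusted p under 0.05, 0.0% of all genes), with 1 lower at an unadjusted p under 0.05. That gene was SMS (spermine synthase), with a log2 difference of -0.20 ± 0.08 (SE, n = 8 lines; limma adjusted p = 0.565). The levels of 6 of the 14 differed between lines, against 72.4% of all genes. None of the 14 was near background in GRANTA-519 or Maver-1. The lowest line mean of 4 of the 14 was in GRANTA-519 (10.1% of all genes had theirs there) and of 0 in Maver-1 (9.08%).

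CDKN1A RNA, coding for p21, was near background in REC-1 alone. Its single probe set, 202284_s_at, read 8.7 with DMSO and 6.9 with AFN700 in REC-1. In HBL-2, the next lowest line, it read 259.8 and 451.3, in Maver-1 581.7 and 454.0, and in SP49 612.0 and 456.1. It read 1229.7 and 1189.4 in Z-138, 1514.8 and 1621.1 in GRANTA-519, 2042.2 and 1523.0 in JVM-13, and 1850.2 and 1972.8 in JVM-2. REC-1 stood far below all other lines, while JVM-2, JVM-13 and GRANTA-519 overlapped in turn at the top, as did SP49 and Maver-1 in the middle. The F-test gave 142.5 (limma, adjusted p = 4.438e-09), rank 127 of 12314. Near background in exactly 1 line and above it in the other 7 were 1.72% of all genes. With the 40th percentile as the limit, 5.5 to 7.8, REC-1 was no longer near background.

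Most neighbours of CDKN1A with signal in some line had it in REC-1 too. Of 26 measured genes within 1 Mb of its start, 17 had signal in some line, 14 of them in all 8 lines. The remaining 3, MAPK13, CPNE5 and MDGA1, were near background in REC-1. MAPK13, a p38 kinase, was near background in Z-138 too, CPNE5 in Z-138 and Maver-1, and MDGA1 in every line but JVM-2.

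The CDKN1A promoter is shown because the RNA of this gene was the most variable of the 8 genes. The 250 bases before the RefSeq start, at chr6:36678464-36678713 on the plus strand of GRCh38.p14, are printed with each GGGCGG or its complement in capitals.
CDKN1A: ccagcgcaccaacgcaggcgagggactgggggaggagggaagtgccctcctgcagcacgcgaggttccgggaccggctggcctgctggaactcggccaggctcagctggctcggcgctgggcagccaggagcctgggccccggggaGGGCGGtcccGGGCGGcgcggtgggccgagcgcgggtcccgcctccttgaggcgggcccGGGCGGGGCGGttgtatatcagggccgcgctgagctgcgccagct
The window holds 4 such matches, 2 of which overlap, and 27 CG dinucleotides.

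CDKN1B RNA, coding for p27, was present in every line at similar levels. Its single probe set, 209112_at, read 874.1 at the lowest, 1154.7 at the median and 1829.3 at the highest with DMSO, and 877.5, 1387.8 and 1908.8 with AFN700. Z-138 was highest on both arrays, at 1829.3 and 1908.8. SP49 read 1516.3 and 1540.6, and HBL-2, at 874.1 with DMSO and 1659.0 with AFN700, spanned or overlapped the values of every line but Z-138. JVM-2 and JVM-13 had the lowest line means and overlapped. The F-test gave 3.62 (limma, adjusted p = 0.0332), the smallest of the 8 genes. The call was lost with each array centred on its median (adjusted p = 0.175), without the variance trend (0.0905), and without SP49 (0.058), Z-138 (0.216) or JVM-2 (0.07), so the order of the lines rests on small differences. p27 is controlled largely through degradation of the protein, which RNA arrays do not measure.

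The third CIP/KIP gene, CDKN1C (p57), belongs to a list of 20 partners of these inhibitors that includes cyclins, kinases and E2F factors. All 20 were tested, 0 passed with AFN700 over 8 lines, and the levels of 17 differed between lines (limma; background 72.4%). CDKN1C had the smallest unadjusted p of the list with AFN700, at a log2 difference of 0.96 ± 0.23 (SE, n = 8 lines; limma, unadjusted p = 0.00132, adjusted p = 0.464), with higher values in 7 of 8 lines. It read 198.4 with DMSO and 870.5 with AFN700 in Maver-1, 215.8 and 616.5 in GRANTA-519 and 98.1 and 272.1 in HBL-2. In JVM-2 and JVM-13 it read only 1.2 to 5.6. JVM-13 is among the 7 lines, with a difference of 0.98 between values near background (1.2 and 5.6), where a difference has little meaning. Of the list, CCND2 (cyclin D2) had the largest range over lines. It read 3866.9 to 4041.6 in JVM-2 and JVM-13, the lines in which CCND1 was low or near background, and 2.6 to 7.2 in REC-1, Z-138 and Maver-1. CDK6, the kinase partner of D cyclins, read 2370.6 and 2190.2 in JVM-2 and 831.4 and 2777.5 in JVM-13. CCND2 was also high in HBL-2, at 2636.2 and 2654.1, and GRANTA-519, at 1257.8 and 546.0, where CDKN2A was near background.

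RB1 RNA was above background on both arrays of all 8 lines. Its probe set 203132_at read 583.8 at the lowest, 1405.8 at the median and 2424.1 at the highest with DMSO, and 856.1, 1530.8 and 2236.0 with AFN700. SP49 was highest, at 2424.1 and 2236.0, ahead of Z-138 at 2052.4 and 2169.3 and GRANTA-519 at 1624.5 and 1829.4. REC-1, at 990.1 and 856.1, and JVM-13, at 583.8 and 1218.9, overlapped at the bottom. The F-test gave 8.44 (limma, adjusted p = 0.00157). The other probe set, 211540_s_at, was dimmer, at 5.7 to 66.2, and exceeded the percentile on both arrays only in SP49 and Z-138, the 2 lines highest by the first probe set. Within 1 Mb of the RB1 start, 9 genes were measured and 5 were above background in all 8 lines.

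RB1 acts by repressing E2F target genes, which drive DNA replication. Of 25 listed E2F targets, 24 were measured and tested, 0 rose or fell over the 8 lines (limma), and the levels of 4 differed between lines (background 72.4%). By line, the number of targets higher with AFN700 ran from 0 to 23 of 24. In GRANTA-519, 0 of the 24 were higher, and their median difference was -0.77, against -0.05 over all genes tested. In JVM-13, 23 of 24 were higher, with a median of 1.05 against 0.27 over all genes, in the line whose DMSO array stands apart. In REC-1, 2 of 24 were higher, in Z-138 3 and in Maver-1 5, with medians of -0.27, -0.24 and -0.25, against 0.05, 0.03 and 0.0 over all genes. In HBL-2, 16 of 24 were higher (median 0.09, all genes 0.17), in JVM-2 13 (0.02, all genes 0.01) and in SP49 12 (0.0, all genes 0.04). These are single pairs of arrays with no replicate check, and the cause of the JVM-13 values was not tested.

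ATM RNA was above background in all 8 lines and varied widely. Its probe set 212672_at was highest in REC-1, at 1196.4 with DMSO and 1308.0 with AFN700, followed by HBL-2 at 645.7 and 998.6 and GRANTA-519 at 825.5 and 609.3. JVM-2 read 496.2 and 631.0, Maver-1 501.2 and 456.3, SP49 332.4 and 422.9, and Z-138 307.1 and 414.2. JVM-13 read 79.8 with DMSO and 364.7 with AFN700, and its DMSO array was the lowest of the 16. REC-1 did not overlap with any other line, while HBL-2, GRANTA-519, JVM-2 and Maver-1 formed a chain of overlapping pairs. The F-test gave 7.31 (limma, adjusted p = 0.00279), and 15.6 without JVM-13 (adjusted p = 7.391e-05). The other 5 ATM probe sets were dimmer. Of these, 210858_x_at was above background on both arrays in 5 lines and 208442_s_at in 4, and REC-1, HBL-2, GRANTA-519 and JVM-2 were among them for both. The remaining 3 were above the percentile on both arrays in none. REC-1 thus combined the highest ATM RNA with the lowest CDKN1A RNA of the 8 lines. High RNA in REC-1 was not confined to ATM. Within 1 Mb of the ATM start, 13 genes were measured and 7 were above background in all 8 lines. CUL5 read 1542.8 and 1551.8 in REC-1 against 477.6 to 1354.0 elsewhere, and ALKBH8 805.6 and 615.8 against 215.6 to 472.3. For CWF19L2, SLC35F2, ACAT1, NPAT and DDX10, REC-1 overlapped with other lines.

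Of 10 measured genes of the DNA damage response and partners of MDM2, 0 passed with AFN700 (limma), 2 were higher at an unadjusted p under 0.05, and the levels of 5 differed between lines (background 72.4%). MDM4, which binds MDM2, had a log2 difference of 0.28 ± 0.11 (SE, n = 8 lines; limma adjusted p = 0.565) and was higher in 6 of 8 lines. RAD50, which holds broken DNA ends for ATM activation, had a difference of 0.42 ± 0.17 (SE, n = 8 lines; limma adjusted p = 0.575). The RAD50 difference was largest in the lines that stood apart, 1.25 in JVM-13 and 0.82 in HBL-2, against -0.27 to 0.53 in the other 6. In JVM-13, 9 of the 10 genes were higher with AFN700, with a median of 1.08 against 0.27 over all genes.

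MDM2 RNA was above background in all 8 lines. The line means of its probe set 229711_s_at, taken over both arrays, spanned 0.99 log2 units. This probe set read 1644.4 at the lowest, 2857.1 at the median and 3550.2 at the highest with DMSO, and 2324.0, 3128.4 and 4266.4 with AFN700. GRANTA-519 was highest on both arrays, at 3550.2 and 4266.4, and overlapped with SP49 at 3290.1 and 3663.9. HBL-2 was lowest with DMSO, at 1644.4, and overlapped with Maver-1. The F-test gave 12.35 (limma, adjusted p = 0.000308). By 217542_at GRANTA-519 did not overlap with any other line, at 820.4 and 1265.4 against 121.0 to 406.9. The same held for 244616_x_at, at 547.3 and 772.1 against 81.2 to 288.3. By 225160_x_at GRANTA-519, at 311.2 and 586.7, overlapped with Z-138 at 305.4 and 316.7.

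The 10 MDM2 probe sets differed in how they responded. In GRANTA-519, 9 of 10 were higher with AFN700, with a median difference of 0.98 log2 units and a range of -0.19 to 2.12. There the probe set 217542_at read 820.4 with DMSO and 1265.4 with AFN700, and 225160_x_at read 311.2 and 586.7. In HBL-2, 2 of 10 were higher, with a median of -0.33, although the probe set that stands for the gene was higher by 0.50. In JVM-13, 5 of 10 were higher, over a range of -1.69 to 1.89. In the other 5 lines 5 to 7 of 10 were higher. Probe sets of one gene share its RNA and are not replicates, 4 of the 10 were above background on all 16 arrays, and the differences of the dim ones carry more noise.

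**Figure D3:**
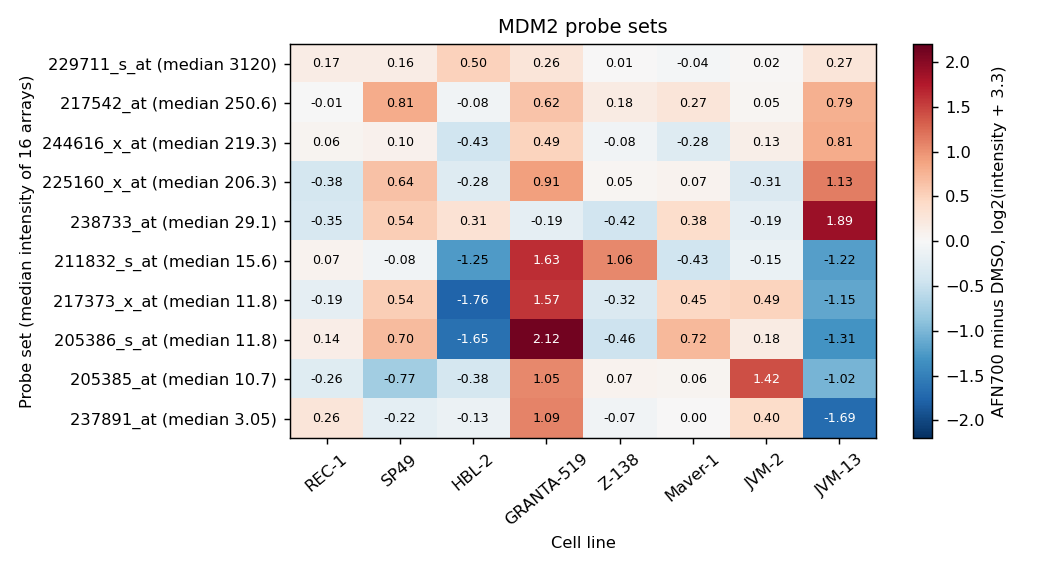
AFN700 minus DMSO in log2(intensity + 3.3) for the 10 MDM2 probe sets (rows, from the brightest, with the median intensity of the 16 arrays) in each of 8 lines (columns), red for higher with AFN700 and blue for lower. GRANTA-519 is higher for 9 of 10 probe sets, while in HBL-2 and JVM-13 the 5 dimmest probe sets are lower and the brightest one is higher.

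With AFN700, none of the 8 genes rose or fell over the 8 lines by limma with the line as a block and Benjamini-Hochberg adjustment over 12314 genes. Over all genes 0 were called, which is 0.0%, while 1009 had an unadjusted p under 0.05. MDM2 had the smallest unadjusted p of the 8 genes, at a log2 difference of 0.17 ± 0.07 (SE, n = 8 lines; limma, unadjusted p = 0.0276, adjusted p = 0.568), and was higher in 7 of 8 lines. ATM had the largest difference, 0.43 ± 0.23 (limma adjusted p = 0.636), and was higher in 6 of 8 lines by its probe set 212672_at. In HBL-2 that probe set was higher by 0.63, while 210858_x_at and 208442_s_at differed by -0.63 and -1.02. In JVM-13 these 2 dimmer probe sets differed by 0.39 and 1.04. Without JVM-13 the ATM difference was 0.19 (limma adjusted p = 0.501). CDKN1B and RB1 each had a difference of 0.13, with SE of 0.12 and 0.13 and adjusted p of 0.766 and 0.793. Without HBL-2 that of CDKN1B was 0.02 (limma adjusted p = 0.974), and without JVM-13 that of RB1 was -0.0048 (adjusted p = 0.986). CDKN1A had a difference of -0.06 ± 0.14 (adjusted p = 0.925), and MTAP -0.15 ± 0.16 (adjusted p = 0.816). CDKN2A, at 0.04 ± 0.26, and CDKN2B, at -0.08 ± 0.22, were near background in most lines, where a difference has little meaning. The median over all genes tested was 0.06. Without JVM-13, 10 genes were called over the remaining 7 lines, and none of the 8 described here was among them.

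**Figure D4:**
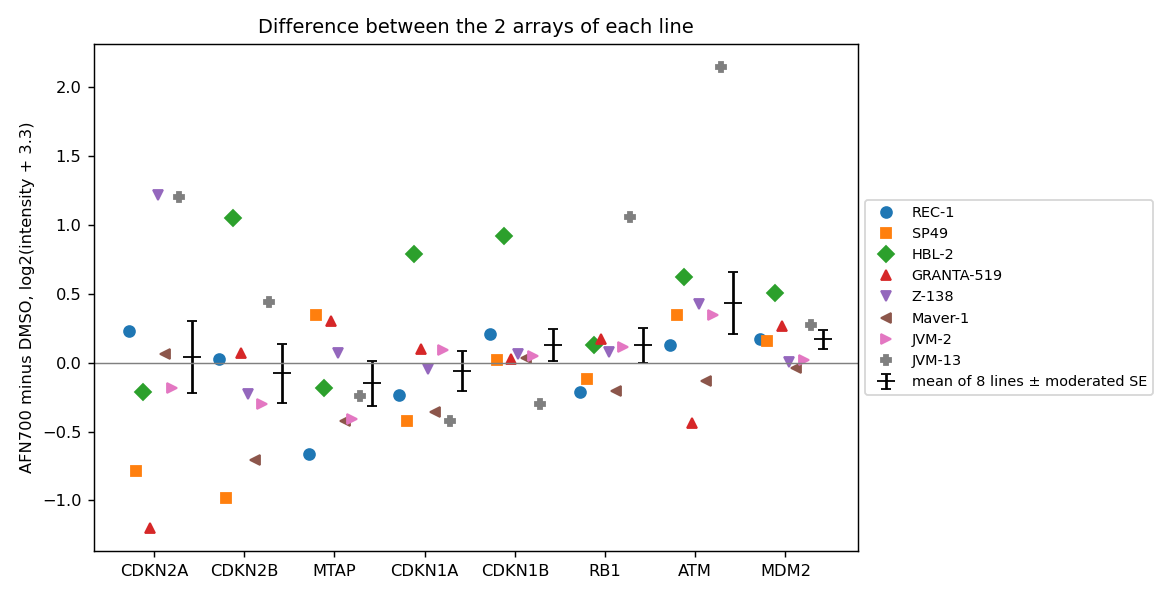
AFN700 minus DMSO in log2(intensity + 3.3) for each of 8 genes, with 1 point per line and the mean of the 8 lines with its moderated SE in black. The points farthest from 0 among the 4 genes above background in all lines are JVM-13 for ATM (2.15) and RB1 (1.06) and HBL-2 for CDKN1B (0.92).

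By the probe set that stands for each gene, the single large differences of genes above background lay in the 2 lines that stood apart. In JVM-13, ATM was higher with AFN700 by 2.15 and RB1 by 1.06, against ranges of -0.44 to 0.63 and -0.21 to 0.17 in the other 7 lines. There 3 of the 8 genes and 32.7% of all genes differed by at least 2-fold, and the median over all genes was 0.27. In HBL-2, CDKN1B was higher by 0.92, CDKN1A by 0.79 and MDM2 by 0.50, against -0.30 to 0.21, -0.42 to 0.10 and -0.04 to 0.28 in the other 7 lines. There 1 of the 8 genes, CDKN2B, and 14.3% of all genes differed by at least 2-fold, and the actin ratio was 1.9 on one array and 16.7 on the other. The part of RNA quality in these values was not tested. In GRANTA-519 (8.14% of all genes at least 2-fold apart) and Z-138 (2.75%) 1 of the 8 genes was, CDKN2A, which is near background in both. In REC-1 (3.57%), SP49 (3.73%), Maver-1 (3.05%) and JVM-2 (2.01%) none was. Among genes above background in these 6 lines, the difference farthest from 0 by those probe sets was -0.66, for MTAP in REC-1. The second MTAP probe set with strong signal, 204956_at, gave larger ones. It differed by -1.11 in SP49, -1.02 in Z-138, -0.91 in REC-1 and -0.34 in JVM-2. In SP49 and Z-138 the probe set that stands for MTAP differed by 0.35 and 0.07. In JVM-13 204956_at differed by 1.17, against -0.24.

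Other suppressor genes of the disease were listed for comparison. Of 13, 10 were measured and tested, 0 passed with AFN700, and the levels of 8 differed between lines (background 72.4%). In Z-138, 1 of the 10 was near background, against 48.6% of all genes, and in the other 7 lines 0 were. That gene, BCOR, had the largest range over lines of the list. It read 0.2 with DMSO and 1.9 with AFN700 in Z-138, against 223.2 to 1503.3 in the other 7 lines. Near background in exactly 1 line and above it in the other 7 were 1.72% of all genes. TNFAIP3, the NF-kB feedback inhibitor A20, had the largest difference of those named, -0.90 ± 0.28 (SE, n = 8 lines; limma, unadjusted p = 0.00668, adjusted p = 0.484), and was lower in 6 of 8 lines. It read 467.9 and 137.9 in REC-1 and 384.4 and 66.6 in SP49. KMT2D, a histone methyltransferase, had a difference of 0.18 ± 0.08 (limma adjusted p = 0.597) and was higher in 7 of 8 lines.

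Without inhibitor, none of the 8 genes differed between the 2 lines labelled sensitive and the 6 labelled insensitive by limma on the DMSO arrays, where 1 of 12314 genes was called (0.00812%) and 703 had an unadjusted p under 0.05. CDKN1A had the smallest p of the 8, at a log2 difference (sensitive minus insensitive) of -3.56 ± 1.29 (SE, n = 2 and 6 lines; limma, unadjusted p = 0.0208, adjusted p = 0.841). The 2 sensitive lines read 8.7 (REC-1) and 612.0 (SP49), and the 6 insensitive lines 259.8 to 2042.2, so SP49 lay within the range of the insensitive lines. The difference was -0.72 without REC-1 and -6.40 without SP49, so it rests on REC-1. Each of these leaves 1 sensitive line, which is assumed to vary like the insensitive ones, and no p is given for it. MTAP had a difference of 2.04 ± 1.73 (limma adjusted p = 0.908). The 2 sensitive lines read 361.1 and 139.0, and the insensitive ones 1.0 to 315.7. The other 6 genes had differences of -0.47 to 0.70, each smaller than its SE.

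Genes whose levels over the 8 lines were most like each of the 8, by Pearson's r of the line means over the genes tested, are named as a description. They share the 16 arrays and, for the genes with 1 or 2 lines apart, mostly that split. For CDKN2A they were GCNT3 (r = 0.985), SIRPG (0.984) and ATP11B (0.984), and for CDKN2B SERPINB5 (0.989), MAGEB2 (0.986) and MAGEA10 (0.985). For CDKN1A they were RBM47 (0.982), DDIT4 (0.973) and TMCC3 (0.968), and for MTAP COX10 (0.931), SACM1L (0.931) and CIDEC (0.929). With CDKN2A, 154 genes had an r over 0.9, with CDKN1A 71, with CDKN1B 35 and with CDKN2B 28. The number was 15 each with RB1 and ATM, 8 with MTAP and 6 with MDM2. For MDM2 they were PRKX (0.987), CCDC124 (0.975) and FAAP24 (0.927), and for CDKN1B UHRF1 (0.974), NKD2 (0.974) and ZMYM5 (0.954). For RB1 they were VPS37A (0.95), TNFRSF11A (0.936) and TRAPPC2 (0.933), and for ATM SRM (0.935), USE1 (0.932) and EFCAB7 (0.931). Among the 8 genes themselves, r over the 8 lines was farthest from 0 for CDKN2B with MDM2 (-0.69), CDKN2A with CDKN1B (-0.68), CDKN1A with ATM (-0.67) and CDKN1B with RB1 (0.62), each resting on few lines.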

How the data were processed

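RNA of 8 lines, each with a DMSO and an AFN700 culture, was measured on 16 single-colour Affymetrix arrays. MAS5 is the tool that the submitters' processing notes name (version not given in the sources used here), and the intensities the authors deposited are on a linear scale. No detection calls were used. The number of arrays limits the precision. Probe sets were named through the platform annotation given: 41091 with 1 gene, 1801 with several and 11721 not listed, with 62 control probe sets left out. Symbols were checked against the GRCh38.p14 RefSeq gene table, also used for neighbours and promoters.

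Intensities were taken to log2(intensity + 3.3), the 25th percentile of all values. Differences on that scale understate changes of low genes. Genes above the 60th percentile of an array on 2 or more arrays were tested with limma 3.58.1 in R 4.3.3 (lmFit, eBayes with a trend), with Benjamini-Hochberg adjustment at 0.05. The line was a block for AFN700, since both arrays of a pair come from 1 line by the labels, and the F-test for line differences came from the same fit. The DMSO comparison used the 8 DMSO arrays. SE is the moderated standard error. The steps were tested on simulated data. Genes named are the 8, up to 4 per list (smallest p or largest range over lines), and the 3 genes of highest r per gene. Neighbours near background in the same lines are named too, as are those of ATM above background in all lines. The members and lists were chosen with earlier results of these data known. Alternatives tried were a lower and a higher pseudocount, centring or quantile normalization of the arrays, stricter or no filter, the mean over probe sets, eBayes without trend, a fit without the line block, a threshold of 0.10, other percentiles and leaving out lines. Lists of T-cell, myeloid, fibroblast and epithelial markers had 7 measured genes each, of which 1, 4, 5 and 3 were near background in all lines, and summed intensities over the 16 arrays of 62.8 to 845.4, 14.3 to 384.8, 19.9 to 684.1 and 29.2 to 499.0, against 5203.8 to 12158.2 for the B-cell markers. Figures were drawn with matplotlib 3.10.9.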

Additional observations from a re-analysis of the deposited data

Results flagged for a closer look

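In 8 of 24 groups of 8 values (DMSO levels, AFN700 levels and differences of the 8 genes), 1 line lay far from the others by Dixon's criterion. In independent groups chance alone meets it in about 1 in 20. These groups share lines and arrays, so the count is not weighed against that rate. HBL-2 was far above the other lines for CDKN2B, with log2 levels of 5.15 with DMSO and 6.2 with AFN700. CDKN2B passed the filter only through HBL-2, so its flags restate that selection. REC-1 was far below the other lines for CDKN1A, with log2 levels of 3.58 with DMSO and 3.35 with AFN700. For the difference between AFN700 and DMSO, HBL-2 stood out for CDKN1A (0.79) and CDKN1B (0.92), and JVM-13 for RB1 (1.06) and ATM (2.15). The 2 lines that give these 4 differences are those whose arrays correlated least with each other, at 0.964 and 0.924.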

How the results depend on the processing

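Each line and treatment has 1 array, so a line's own difference has no replicate check, and values under the 60th percentile have no dependable order. Where a direction changed, the value had not passed the test, and the cause was not tested. With AFN700 over 8 lines, 0 genes were called, and leaving out each line in turn gave 0 to 10, the 10 without JVM-13; without JVM-13 and HBL-2 together 37 were called. Without the line block (the replicate block of the paired design) 0 were called, 57 at an unadjusted p under 0.05, and no call changed.

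The AFN700 difference changed direction for CDKN2A with quantile normalization (-0.050), with centring (-0.056) and without JVM-13 and HBL-2 (-0.11), and ran from -0.13 to 0.22 leaving out single lines. It did for CDKN2B with a pseudocount of 16 (0.043) and with the mean over probe sets (0.027), and ran from -0.24 to 0.051 leaving out single lines. It did for RB1 with the mean over probe sets (-0.11) and without both lines (-0.028), and ran from -0.0048 to 0.18 leaving out single lines. Those of MTAP, CDKN1A, CDKN1B, ATM and MDM2 kept their direction under all 19 alternatives, but not their size. That of ATM ran from 0.0013 to 0.55 and that of CDKN1B from 0.015 to 0.19. The range was -0.27 to -0.076 for MTAP, -0.18 to -0.011 for CDKN1A and 0.072 to 0.20 for MDM2.

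In the DMSO comparison 1 gene was called. The count was 3 with a pseudocount of 16, 5 with no filter, 0 with the filter on 8 arrays, 0 with the mean over probe sets, 8 with no trend, 2 at a threshold of 0.10, 0 without JVM-13 and HBL-2, and 0 to 47 leaving out single lines. The MDM2 difference changed direction with centring (-0.13), with the mean over probe sets (-0.20) and without both lines (-0.17), and that of RB1 without both lines (-0.036). Leaving out single lines, the DMSO differences ran from -1.06 to 0.12 for CDKN2A, -0.68 to 0.028 for CDKN2B, -0.0020 to 0.36 for CDKN1B, -0.41 to 0.88 for RB1, -0.21 to 1.62 for ATM and -0.23 to 0.29 for MDM2. With the 40th percentile CDKN1A was near background in 0 lines, and with the mean over probe sets ATM in 4.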
